A study of Sus scrofa with 19 samples.

Results

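CDK1, CCNB1, BIRC5 and CDC25C are genes of the entry into and passage through mitosis, described here in pig endometrium, the lining of the uterus. They were chosen by the RefSeq accession that the array design gives each probe, and the names themselves were selected on earlier results of the same arrays. Together they had 7 probes of 43603, and were 4 of 3123 genes that could be given a symbol. CDK1 (NM_001159304) was covered by probes A_72_P293014 and A_72_P440916, CCNB1 (NM_001170768) by A_72_P260897, BIRC5 (NM_214141) by A_72_P303219 and A_72_P496341, and CDC25C (NM_001123095) by A_72_P336133 and A_72_P440766. The first probe given for each gene was the brighter one and is the one meant wherever no probe is named.

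CDK1 encodes the kinase whose activity starts mitosis, and CCNB1 encodes cyclin B1, the subunit that activates it. CDC25C encodes a phosphatase that removes the inhibitory phosphates from CDK1. BIRC5 encodes survivin, a subunit of the chromosomal passenger complex, which works at centromeres and in cytokinesis, and a member of the inhibitor of apoptosis family. In cycling cells, transcripts of CDK1, CCNB1 and BIRC5 are known to peak late in the cycle, and estrogens are known to act on proliferation in the uterus.

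The animals were gilts, female pigs (Sus scrofa) before a first litter, all crossbred, 8 months of age and of shared genetic background, whose oestrus had been synchronised. Both uterine horns of every gilt were cannulated by surgery on day 8 or 9 of the cycle, and all infusions were given at 4 h intervals for 24 h on days 11 to 12. In treated gilts a randomly selected horn was infused with 200 µg prostaglandin E2 (PGE2) plus 33.3 µg estradiol (E2) each time (hormone horn), and the horn on the other side with vehicle, 5 mL of saline holding 1% ethanol (placebo horn). Control gilts had vehicle in both horns. There were 6 arrays of hormone horns, 5 of placebo horns, and 8 of 4 control gilts, each with a horn marked L and one marked P, letters that the labels leave unexplained. In the 5 treated gilts with both horns the hormone horn was marked P and the placebo horn L, and gilt 40 is represented by its hormone horn alone, which bears an L, so that within those 5 gilts the letter and the treatment cannot be told apart. A placebo horn shared its animal and circulation with a hormone horn, so it is no untreated animal.

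Between 79.1% and 88.4% of the 43803 spots that were not controls were well above background on each array, and the 75th percentile of their signal ranged from 597 to 983. Each level below is the log2 of a probe's signal minus the log2 of that percentile, so that 0 marks its brightness and 1 unit is a doubling. All 7 probes were well above background on all 19 arrays. Of the epithelial markers 7 of 11 and of the stromal markers 5 of 10 were measured, all of them well above background on every array, as were the 4 endometrial hormone receptor genes ESR1, PGR, OXTR and LPAR3. A whole piece of tissue was measured, in which a larger number of dividing cells and more transcript per cell cannot be told apart.

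CDK1 stood lowest in control gilts, higher in placebo horns and highest in hormone horns. In the control horns marked L its level was -2.85, -2.08, -1.69 and -1.74 in gilts 9, 14, 28 and 46, and in those marked P it was -3.35, -2.01, -2.43 and -1.64. Both horns of gilt 9 were the lowest of the 19 arrays. The placebo horns of gilts 36, 38, 41, 44 and 47 had -0.41, -0.78, -0.83, -2.19 and 1.15. The placebo horn of gilt 44 thus lay among the control arrays, whereas the other 4 lay above them. In the hormone horns CDK1 was at 0.37, 0.33, -0.11, 0.03, 0.01 and 2.17 in gilts 36, 38, 40, 41, 44 and 47. All 6 values lay above all 8 control values, but the placebo horn of gilt 47 exceeded the hormone horns of every other gilt. Group means were -2.22 ± 0.61 (SD over 4 control gilts), -0.61 ± 1.19 (SD, n = 5) and 0.47 ± 0.85 (SD, n = 6).

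The hormone horns differed from control gilts in CDK1 by 2.69 ± 0.43 log2 units (SE), or 6.47-fold, and the placebo horns by 1.55 ± 0.45, or 2.93-fold. The second CDK1 probe gave 2.72 ± 0.42 and 1.61 ± 0.43. CDK1, CCNB1 and BIRC5 had been chosen with the first of these comparisons in view and CDC25C with the second, so no test is given for the 4 genes in either, and the comparisons share their control arrays. For the background, 11.6% of 39091 probes passed an adjusted p under 0.05 in hormone horns against control gilts, 6.72% as higher, and 4.42% passed in placebo horns against control gilts. All hormone arrays lay above all control arrays for 3.83% of probes, and for all 5 probes of CDK1, CCNB1 and BIRC5. Because these genes were chosen with that contrast, nothing is read from their count.

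CCNB1, the cyclin partner, kept to a narrow range in control gilts. Its levels were -1.69, -0.995, -1.10 and -1.27 in the L horns of gilts 9, 14, 28 and 46, and -1.68, -1.13, -1.28 and -1.26 in the P horns. In placebo horns it was -0.59, -1.01, -1.003, -1.53 and 0.65 in gilts 36, 38, 41, 44 and 47. Gilts 36 and 47 lay above the control range there, while gilts 38, 41 and 44 lay within it. In hormone horns it was 0.09, -0.13, -0.12, -0.58, -0.59 and 1.60 in gilts 36, 38, 40, 41, 44 and 47, all above every control array. The difference from control gilts was 1.34 ± 0.30 (2.54-fold) in hormone horns. In placebo horns it was 0.59 ± 0.31 with an approximate 95% interval of -0.03 to 1.20, and 0.28 without gilt 47.

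BIRC5, the survivin gene, lay near the 75th percentile in control gilts. Its levels were -0.55, -0.13, -0.24 and -0.19 in the L horns of gilts 9, 14, 28 and 46, and -0.73, -0.03, -0.50 and -0.04 in the P horns. Placebo horns had 0.37, 0.51, -0.08, -0.26 and 1.44 in gilts 36, 38, 41, 44 and 47, so that gilts 41 and 44 overlapped the controls. Hormone horns had 1.08, 1.05, 0.52, 0.41, 0.64 and 2.11 in gilts 36, 38, 40, 41, 44 and 47, with no overlap with the control arrays. The difference from control gilts was 1.27 ± 0.25 (2.41-fold) in hormone horns and 0.65 ± 0.26 (1.56-fold) in placebo horns, the latter 0.41 without gilt 47. The second BIRC5 probe gave 1.36 ± 0.26 and 0.75 ± 0.27.

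CDC25C, the activating phosphatase of CDK1, went the other way. It was at -0.71, -0.17, -0.47 and -0.23 in the L horns of gilts 9, 14, 28 and 46, and at 0.32, -0.68, -0.91 and -0.46 in the P horns. In the placebo horns of gilts 36, 38, 41, 44 and 47 it was at -1.40, -2.03, -0.55, -2.40 and -1.66, of which only gilt 41 lay within the control range. In the hormone horns of gilts 36, 38, 40, 41, 44 and 47 it was at -1.18, -1.59, -2.36, -0.16, -1.87 and -0.61, and there gilts 41 and 47 overlapped the controls. The difference from control gilts was -1.31 ± 0.36 in placebo horns and -0.88 ± 0.35 in hormone horns, or 2.48-fold and 1.84-fold lower.

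The second CDC25C probe had a mean signal of 90.8. It was at -3.83 to -2.50 in control horns, at -4.52 to -2.50 in placebo horns and at -4.81 to -2.27 in hormone horns, so the groups overlapped. Its difference from control gilts was -0.80 ± 0.40 in placebo horns and -0.78 ± 0.39 in hormone horns. Across the 19 arrays the paired probes correlated at r = 0.997 for CDK1, 0.986 for BIRC5 and 0.860 for CDC25C, as a description of arrays that share gilts and groups.

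**Figure D1:**
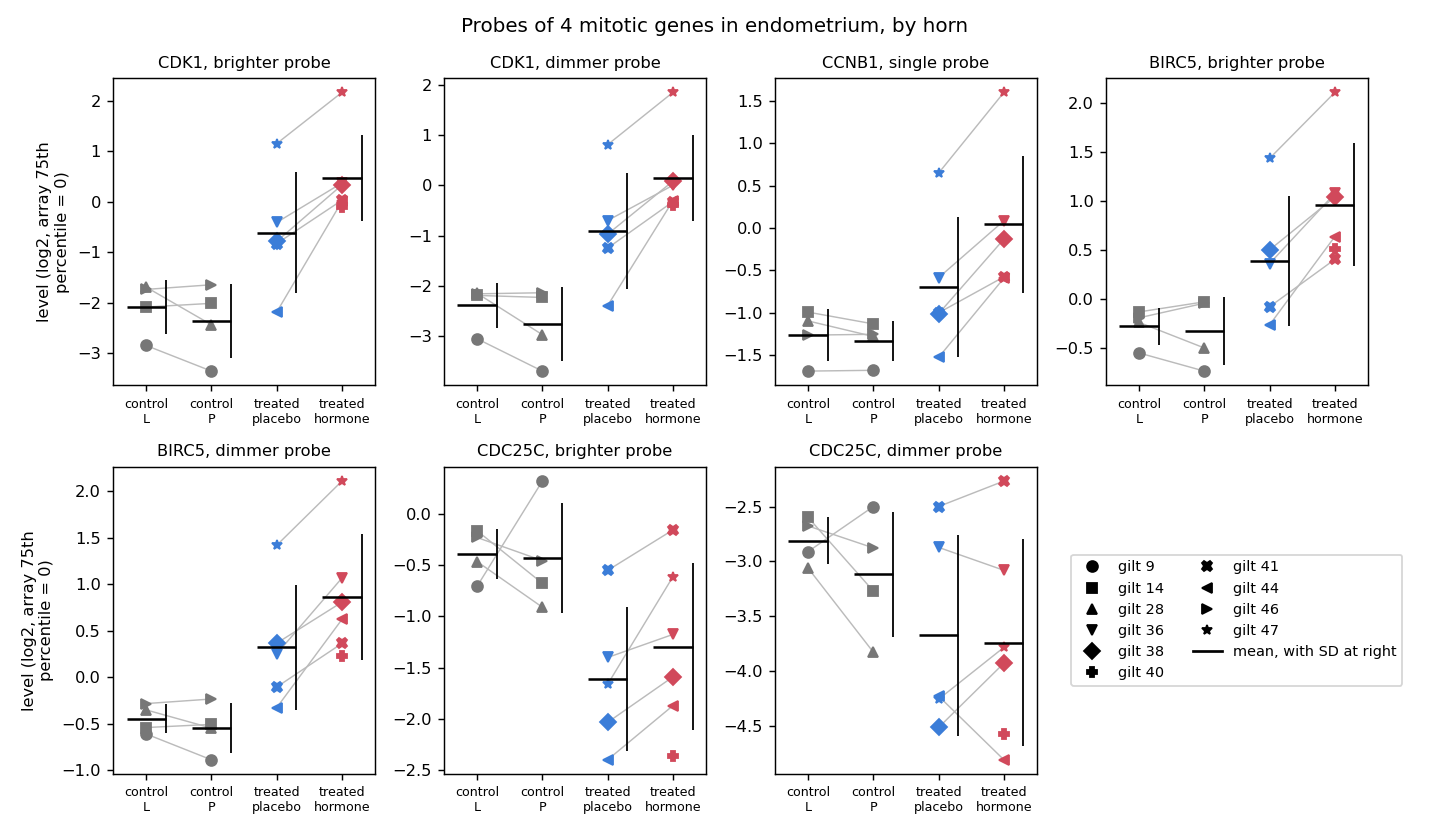
Level of each of the 7 probes (y axis, log2 relative to the array's 75th percentile) in the L and P horns of control gilts and the placebo and hormone horns of treated gilts (x axis). Each point is 1 array, grey lines join the horns of a gilt, black bars are group means with the SD at their right. For CDK1, CCNB1 and BIRC5 all hormone horns lie above all control horns and gilt 47 is the highest, while CDC25C lies lower in most treated horns.

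Arrays were scanned on 3 days, each of which held all kinds of horn, with as few as 1 control gilt or 1 placebo horn. Within days 1, 2 and 3 the plain mean difference of hormone horns from control horns was 3.29, 2.02 and 2.94 for CDK1. It was 1.43, 0.78 and 2.00 for CCNB1, and 1.50, 0.68 and 1.69 for BIRC5. For CDC25C it was -1.33, -0.71 and -0.76. The signs on all days were those of the pooled values, with the smallest size on day 2. Placebo horns minus control horns gave 1.80, 1.23 and 1.87 for CDK1, 0.63, 0.12 and 1.08 for CCNB1, 0.69, 0.15 and 1.09 for BIRC5, and -1.70, 0.00 and -1.50 for CDC25C, so that on day 2, with 1 placebo horn, the CDC25C difference was nil. On that day the second CDC25C probe had 0.69 for the placebo horn, against its pooled direction, and -0.23 for hormone horns. The horns of a gilt shared a slide, and a single slide held both a control and a treated gilt (9 and 36), where hormone horn minus control was 3.47 for CDK1, 1.77 for CCNB1, 1.72 for BIRC5 and -0.98 for CDC25C. Gilt 9, also the only control gilt of day 1, was the lowest control gilt for CDK1, CCNB1 and BIRC5 and the highest for CDC25C. Its CDK1 mean was -3.10 against -2.22 over the 4 control gilts, which enlarges the day 1 and slide differences.

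Gilt 47, the highest in both kinds of treated horn for CDK1, CCNB1 and BIRC5 but not for CDC25C, also had the highest levels of several immune cell markers. For T and natural killer cells (10 of 13 markers measured) the median marker lay 2.61 above the control mean in its hormone horn and 2.52 in its placebo horn, against -0.21 to 0.90 and 0.15 to 0.79 in the other treated gilts. The median macrophage and dendritic cell marker (9 of 13 measured) lay 2.47 and 2.62 above in gilt 47, against 0.06 to 0.83 and 0.34 to 0.99. The summed T and natural killer cell signal, in multiples of the array's 75th percentile, was 3.84 to 17.2 in hormone horns, 4.95 to 16.3 in placebo horns and 5.86 to 8.48 in control horns. The summed macrophage signal was 27.5 to 223.5, 29.8 to 253.3 and 16.8 to 28.3. The 3 measured B and plasma cell markers of 8 summed to at most 0.756, 0.895 and 0.140.

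Neutrophil markers (5 of 8 measured) were not particular to gilt 47 in hormone horns. Their median lay 6.70 above the control mean there and 2.05 to 6.80 in the hormone horns of the other gilts, with 7.67 against -0.75 to 4.74 in placebo horns. Their summed signal was 1.15 to 67.7 in hormone horns, 0.210 to 79.5 in placebo horns and 0.383 to 0.813 in control horns. The median epithelial marker lay above the control mean by 0.60 to 0.93 in the hormone horns other than that of gilt 47 (0.35) and by 0.39 to 0.70 in placebo horns, against -0.58 to 0.19 on control arrays, with no overlap. Of single probes 3.83% had all hormone arrays above all control arrays, and the share for placebo horns was not counted. Of the 7 measured epithelial markers 4 rose in hormone horns and 4 in placebo horns against control gilts (limma, adjusted p under 0.05). Of all probes 6.72% passed as higher in hormone horns, and 4.42% passed in placebo horns in either direction. In hormone horns 3 of 4 endothelial, 2 of 5 stromal, 3 of 9 macrophage and 3 of 5 neutrophil markers rose too. No smooth muscle, T or B cell marker rose, and 1 of 10 T and natural killer cell markers fell. In placebo horns 1 macrophage and 1 neutrophil marker rose besides the epithelial ones. Epithelial markers summed to 111.0 to 218.3, 126.4 to 185.5 and 110.6 to 149.2, stromal markers to 228.5 to 359.0, 218.8 to 271.2 and 161.4 to 235.7, and endothelial markers to 25.4 to 40.2, 19.9 to 42.4 and 16.8 to 23.6. Smooth muscle markers (4 of 6 measured) summed to 80.0 to 164.8 in hormone horns, 40.5 to 81.4 in placebo horns and 39.4 to 296.2 in control horns, the last in the P horn of gilt 9. Of the measured markers 9 of 10 for T and natural killer cells, 2 of 3 for B and plasma cells and 4 of 5 for neutrophils were well above background on all 19 arrays. All measured markers of the other lists were so. Without gilt 47 the difference of hormone horns from control gilts was 2.35 for CDK1, 1.03 for CCNB1, 1.04 for BIRC5 and -1.02 for CDC25C. The part of the other marker differences in these results was not tested.

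**Figure D2:**
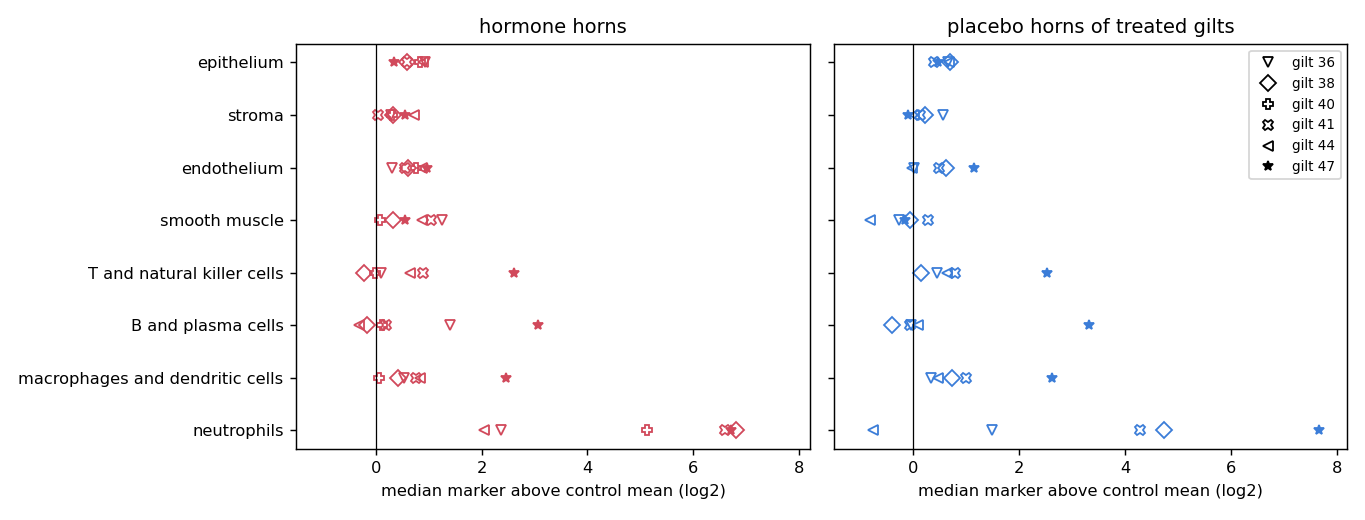
Median marker level above the control mean (x axis, log2) for 8 cell type lists (y axis) in hormone horns (left) and placebo horns of treated gilts (right). Each point is 1 array, with gilt 47 filled. T, B and macrophage markers stand out in both horns of gilt 47, and neutrophil markers range from 2.05 to 6.80 across the hormone horns.

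The horns of the same treated gilt were then compared, which sets the hormone infusion against vehicle within an animal. In each of the 5 gilts all 4 genes stood higher on the hormone side. The median smooth muscle marker did so too in 5 of 5 gilts, at 1.26, 0.32, 1.04, 0.87 and 0.55 above the control mean in the hormone horns of gilts 36, 38, 41, 44 and 47 and at -0.28, -0.05, 0.29, -0.82 and -0.15 in their placebo horns, although 0 of the 4 measured markers passed (limma) and 3 had an unadjusted p under 0.05. Its part in the results was not tested. A higher value in all 5 gilts was seen for 5.36% of probes. For CDK1 the difference was 0.78, 1.12, 0.86, 2.20 and 1.02 in gilts 36, 38, 41, 44 and 47, largest in gilt 44, whose placebo horn was as low as the controls. For CCNB1 it was 0.67, 0.88, 0.42, 0.94 and 0.95. CDK1 and CCNB1 had been named earlier for this comparison, so that 1.14 ± 0.30 (SE) and 0.76 ± 0.21, or 2.21-fold and 1.69-fold, are given as a description.

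BIRC5 and CDC25C were tested, but BIRC5 had been chosen on high hormone horns and CDC25C on low placebo horns. Both choices push this difference upwards, so neither test is independent of the choice. The BIRC5 difference was 0.72, 0.54, 0.48, 0.90 and 0.67 in gilts 36, 38, 41, 44 and 47. In the fit across all probes this was 0.62 ± 0.18 (1.54-fold), which did not pass (limma, adjusted p = 0.271; second probe 0.61 ± 0.19, adjusted p = 0.296). CDC25C differed by 0.22, 0.44, 0.39, 0.53 and 1.05, or 0.43 ± 0.25 in the fit, which did not pass either (adjusted p = 0.557), and the fitted difference was 0.27 without gilt 47. Its second probe was higher in 3 of 5 gilts only, with a fitted difference of 0.02 ± 0.28 (adjusted p = 0.981). In this comparison 0.00256% of probes passed, 1 of 39094, with 3877 at an unadjusted p under 0.05.

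In control gilts, where both horns had vehicle, the P horn minus the L horn measures how far horns differ without hormone. It was -0.51, 0.07, -0.75 and 0.09 for CDK1 in gilts 9, 14, 28 and 46, and 0.01, -0.14, -0.18 and 0.01 for CCNB1. It was -0.19, 0.10, -0.26 and 0.15 for BIRC5. For CDC25C it was 1.03, -0.51, -0.45 and -0.22, and this spread was wider than that among the treated gilts. The fitted differences were -0.27 ± 0.35 for CDK1, -0.08 ± 0.24 for CCNB1, -0.05 ± 0.20 for BIRC5 and -0.04 ± 0.28 for CDC25C, none of which passed (limma, adjusted p = 1.00 for each). Their approximate 95% intervals ran from -0.95 to 0.41, -0.55 to 0.40, -0.45 to 0.35 and -0.59 to 0.52. Of all probes 0% passed here (0 of 39092, limma), and 935 had an unadjusted p under 0.05. The sign turned for BIRC5 without gilt 28 (0.02) and for CDC25C without gilt 14 (0.12), 28 (0.10) or 46 (0.02).

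The horn difference was also compared between treated and control gilts. For BIRC5 the means were 0.66 ± 0.16 (SD, n = 5) and -0.05 ± 0.20 (SD, n = 4), a difference of 0.71 (exact permutation test over gilts, two-sided, p = 0.00794, the smallest that 126 splits allow; 0.0159 adjusted over the 2 genes tested). The second BIRC5 probe gave 0.77 with the same exact p = 0.00794. BIRC5 belonged to a group of genes already known to lie higher in these hormone horns, so the test is not independent support. For CDC25C the means were 0.53 ± 0.31 (SD, n = 5) and -0.04 ± 0.72 (SD, n = 4), and the difference of 0.57 did not pass (exact permutation test, p = 0.135). Without control gilt 9 it was 0.92 with an exact permutation p = 0.0179, the smallest that 5 against 3 gilts allow, which supports nothing since the low placebo horns that enter it chose this gene. It was 0.41 with an exact p = 0.262 on the second probe. The treated means were 1.19 ± 0.57 for CDK1 and 0.77 ± 0.23 for CCNB1 (SD, n = 5) and the control means -0.27 ± 0.42 and -0.08 ± 0.10 (SD, n = 4), which are given without a test.

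**Figure D3:**
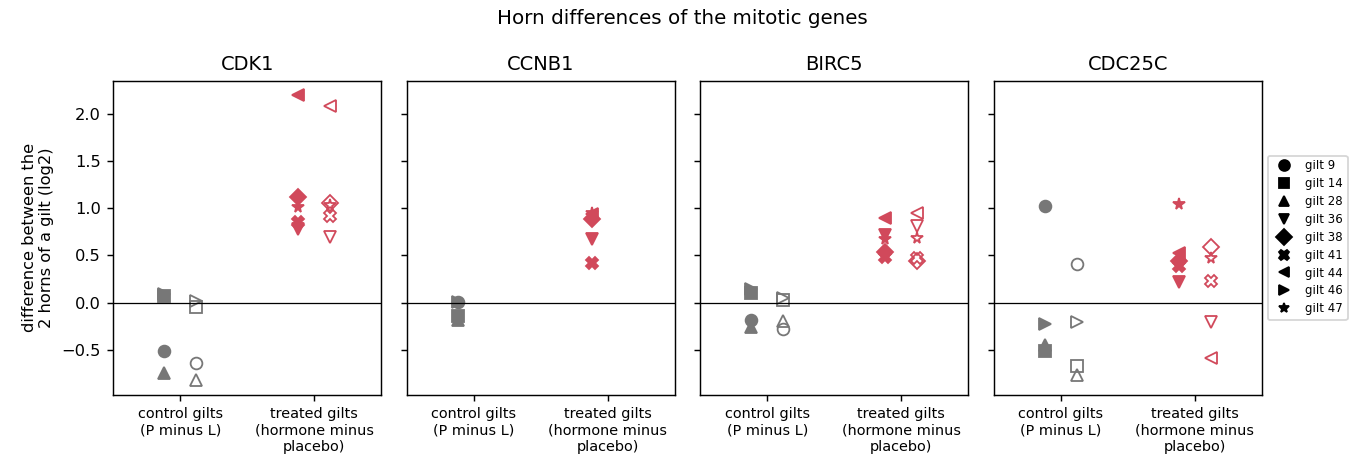
Difference between the horns of a gilt (y axis, log2) in control gilts (grey, P minus L) and in treated gilts (red, hormone minus placebo) for each gene. Filled points are the brighter or only probe and open points the dimmer probe. Every treated gilt lies above every control gilt for CDK1, CCNB1 and BIRC5, whereas CDC25C overlaps, with control gilt 9 at 1.03 on the brighter probe. The share of all probes with such a separation was not counted. CDK1, CCNB1 and BIRC5 had been chosen on high hormone horns, so nothing is read from it.

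CDK1, CCNB1 and BIRC5 varied together from array to array. Over the 19 arrays r was 0.940 for CDK1 with CCNB1, 0.964 for CDK1 with BIRC5 and 0.963 for CCNB1 with BIRC5. With the group means taken out it was 0.917, 0.925 and 0.933, and without gilt 47 it was 0.924, 0.944 and 0.923. CDC25C had r = -0.359 with CDK1, -0.243 with CCNB1 and -0.354 with BIRC5, which became 0.238, 0.191 and 0.105 once group means were taken out. These values describe arrays that share gilts, slides and groups, and carry no test.

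**Figure D4:**
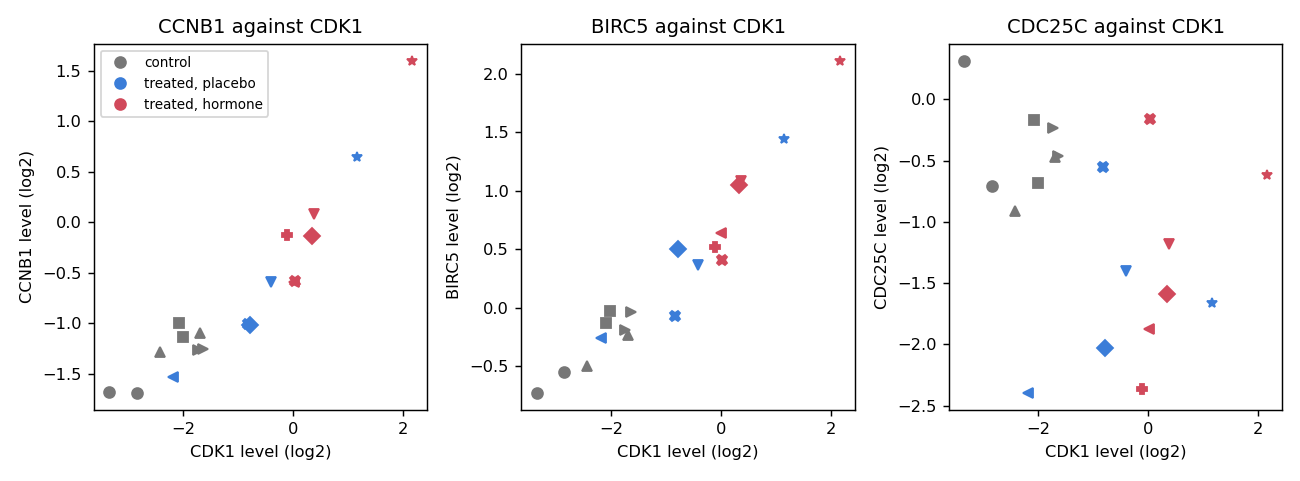
Levels of CCNB1, BIRC5 and CDC25C (y axes, log2) against CDK1 (x axes, log2) on the 19 arrays, with control horns in grey, placebo horns in blue and hormone horns in red, and 1 marker shape per gilt. CCNB1 and BIRC5 follow CDK1 along a line that runs through all groups (r = 0.940 and 0.964), whereas CDC25C does not (r = -0.359).

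Among 2945 genes with a symbol, those most like CDK1 over the 19 arrays were TOP2A, which encodes DNA topoisomerase II alpha (r = 0.992), CCNB2, which encodes cyclin B2 (0.990), PCLAF, which encodes a PCNA-binding factor (0.989), SPAG5, which encodes a spindle protein (0.989), and MTFR2 (0.985). For CCNB1 they were CCNF (0.977), BIRC5 (0.963), SPAG5 (0.962), CDC20 (0.951) and CDK1 (0.940). For BIRC5 they were SPAG5 (0.979), CCNF (0.979), PCLAF (0.966), TOP2A (0.964) and CDK1 (0.964). CDC25C had other neighbours at lower r, among them PLCD4 (0.869), PGLYRP1 (0.865), STMN1 (0.857) and ITGB8 (0.799). These 4 were, like CDC25C, below control gilts in both kinds of treated horn, with differences in hormone horns of -0.84, -1.39, -0.64 and -0.53 that did not pass (limma, adjusted p from 0.0612 to 0.143). In placebo horns PLCD4 differed by -1.09 (adjusted p = 0.0430) and the other 3 did not pass. PGLYRP1, which encodes a peptidoglycan recognition protein of neutrophil granules, is also on the neutrophil list, of which 3 of 5 measured members rose in hormone horns and 0 fell (limma, adjusted p under 0.05), so that it lay on the other side of control gilts from those 3.

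Other genes of the cell cycle were measured for 45 of 255 names in 7 lists. In hormone horns against control gilts 9 rose and 1 fell (limma, adjusted p under 0.05), which is 22.2% against 15.2% of the 3010 genes with a symbol that were tested, where 384 rose and 74 fell. The median difference was 0.28 log2 units over the 45 and 0.17 over all 3010. The count was 5 without control gilt 14 and 5 without control gilt 28. Over all probes 4553 of 39091 passed, but 1454 without gilt 14 and 1624 without gilt 28. Probes with a RefSeq accession, to which all of these belong, had a median of 0.20 against -0.10 for probes designed on contigs.

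Of the 10 measured regulators of CDK1 and cyclin B, 3 rose. CCNB2, the other B-type cyclin, rose by 2.46 ± 0.45 (adjusted p = 0.00393), CCNF, a cyclin-like subunit of a ubiquitin ligase that curbs cyclin-dependent activity, by 1.66 ± 0.31 (adjusted p = 0.00399), and AURKA, a kinase of centrosomes and the spindle, by 0.72 ± 0.18 (adjusted p = 0.0163). CCNB2 ranged from -6.85 to -5.05 on control arrays and from -3.70 to -1.48 in hormone horns, with no overlap. Of all probes 3.83% had all hormone arrays above all control arrays. Over the same arrays CCNB2 followed CDK1 (r = 0.990) and CCNF followed CCNB1 (r = 0.977). CDK1 and CCNB1 were chosen on this contrast, so the calls of CCNB2 and CCNF are not independent support. AURKA did not pass without control gilt 14 or 28 (adjusted p = 0.0549 and 0.0538), nor with another background correction (normexp; 0.34, adjusted p = 0.144). In all, the AURKA call was lost in 4 of 21 alternatives. PKMYT1, which encodes a kinase that inhibits CDK1, was above background on 11 of 19 arrays and had 1.17 ± 0.75 (adjusted p = 0.338), but passed without control gilt 9 (1.58, adjusted p = 0.0215). AURKB, the kinase of the chromosomal passenger complex that holds survivin, had 0.28 ± 0.18 (adjusted p = 0.332). CKS1B, a CDK-binding subunit, had 0.49 ± 0.18 (adjusted p = 0.0780) and passed without gilt 36 (0.64, adjusted p = 0.0121).

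Of the 4 measured genes of the spindle and kinetochore list, TOP2A rose by 2.64 ± 0.42 (6.24-fold, adjusted p = 0.00234) and CDCA7 by 1.09 ± 0.34 (adjusted p = 0.0443), although CDCA7 is known as a chromatin factor. CDCA7 falls outside the naming rule and was picked after its value was seen. Of the 4 in the list of the anaphase-promoting complex, cohesin and condensin, CDC20, the activator that starts the breakdown of cyclin B, rose by 2.19 ± 0.41 (adjusted p = 0.00436). TOP2A followed CDK1 (r = 0.992) and CDC20 followed CCNB1 (r = 0.951), both chosen on this contrast, so these 2 calls are not independent support. Normexp gave smaller differences for the dim probes of CCNB2 (0.98), TOP2A (1.72) and CDC20 (0.82), which still passed. None of 5 DNA replication genes passed (limma), with 2 of 5 at an unadjusted p under 0.05.

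In the G1 list CCND3, which encodes cyclin D3, rose by 0.63 ± 0.19 (adjusted p = 0.0366). The CCND3 call was lost in 7 of 21 alternatives, among them those without gilt 9, 14, 28, 36 or 46 (adjusted p from 0.0510 to 0.120). CCND2 had 0.39 ± 0.23 (adjusted p = 0.277) and CDK4 0.53 ± 0.17 (adjusted p = 0.0553), and CDK4 passed without gilt 38 or 40 (adjusted p = 0.0340 and 0.0373). Among 15 inhibitors and checkpoint genes BTG3, an antiproliferative gene, rose by 1.15 ± 0.24 (adjusted p = 0.00737) and CDKN1B, which encodes the inhibitor p27, fell by 0.55 (adjusted p = 0.0393). The CDKN1B call was lost in 9 of 21 alternatives, among them those without gilt 9, 14, 28, 36, 41 or 47 (adjusted p from 0.0583 to 0.142). CDKN3 had 0.46 ± 0.26 (adjusted p = 0.265). In the family of survivin XIAP had -0.16 ± 0.12 (adjusted p = 0.419), and DIABLO, an antagonist of this family, rose by 0.46 ± 0.12 (adjusted p = 0.0214), but did not pass without gilt 9, 14 or 28 (adjusted p = 0.0569, 0.0912 and 0.0677).

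**Figure D5:**
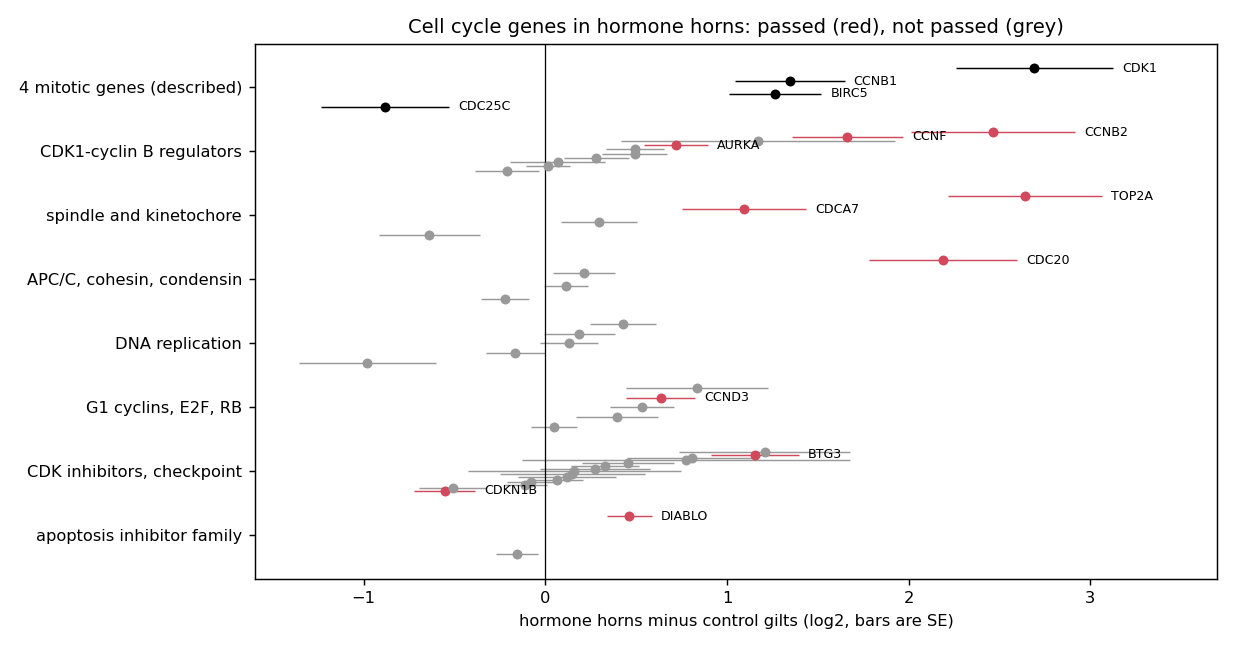
Difference of hormone horns from control gilts (x axis, log2, bars are SE) for the 4 mitotic genes (black, described without a test) and the 45 other cell cycle genes by list (y axis), red where the adjusted p was under 0.05 and grey where it was not. TOP2A, CCNB2, CDC20 and CCNF lie between 1.66 and 2.64, and most other genes lie within 1 unit of 0.

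In placebo horns against control gilts 3 of the 45 rose and 0 fell (6.67% against 4.52% of all genes with a symbol; median 0.15 against 0.07). These were TOP2A (1.67 ± 0.44, adjusted p = 0.0395), BTG3 (1.14 ± 0.25, adjusted p = 0.0257) and ARPP19 (0.72 ± 0.16, adjusted p = 0.0291), whose product restrains the phosphatase that opposes CDK1. CCNB2 had 1.64 ± 0.47 (adjusted p = 0.0522) and CDC20 1.41 ± 0.42 (adjusted p = 0.0596). The count of 3 was 0 without gilt 9, 14, 28, 38 or 47, 7 without gilt 36 and 5 without gilt 44. Over all probes 1728 of 39092 passed, but 126, 34, 0, 396 and 418 without gilts 9, 14, 28, 38 and 47. It was 3294 without gilt 36 and 1548 without gilt 44. Between the horns of treated gilts 0 of the 45 passed (limma), with 13 at an unadjusted p under 0.05 against 362 of 3010 genes. Without gilt 47, 1 of the 45 passed, as did 16 of 39092 probes. CCNB2 (0.83 ± 0.32), CDC20 (0.78 ± 0.29) and TOP2A (0.97 ± 0.30) were higher in the hormone horn in 5 of 5 gilts, and CDKN1B (-0.31 ± 0.12) was lower in 5 of 5. CCNF, CDCA7, AURKB and PKMYT1 were among the other listed genes that were higher in 5 of 5. Of all probes 5.36% were higher in 5 of 5, and the share lower in 5 of 5 was not counted. Between the horns of control gilts 0 of the 45 passed (limma), with 0 at an unadjusted p under 0.05 against 67 of 3010 genes.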

How the data were processed

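Endometrial RNA of 19 uterine horns was hybridised to one-colour (Cy3) Agilent arrays. The intensity of each spot in the deposited scanner files is linear and was background-subtracted within each array by Agilent Feature Extraction, in version 10.7.3.1 per the file headers and 9.1 per the submitters' processing notes. The authors' deposited value table, on a log2 scale with unstated normalization and centring, served as an alternative only.

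Here control spots and spots with an outlier flag were left out, spots of a probe were averaged, and the log2 of each array's 75th percentile was subtracted. Probes that 4 or more arrays showed well above background entered the test with limma 3.58.1 and statmod 1.5.0 in R 4.3.3 (lmFit, eBayes with trend), with 4 groups, the gilt as a random block (correlation 0.536) and Benjamini-Hochberg adjustment over all probes at 0.05. Tests were two-sided. Control gilts entered with all 8 arrays, and the mean of the L and P groups stood for control gilts. Comparisons with them set 6 or 5 treated gilts against 4, while the fit counts arrays, so their p can be too small for probes that vary between gilts. The number of arrays limits the precision.

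Horns with the same gilt number come from the same animal. Their deviations from group means correlated at 0.336 to 0.795 in treated and 0.403 to 0.627 in control gilts, above any other gilt (at most 0.143 and 0.0181), and the horns of a gilt also shared a slide.

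Symbols came through RefSeq accessions matched without version to the Sscrofa11.1 gene table (1 gene was found for 6876 of 43603 probes, and a symbol for 6768), and the brightest probe stood for a gene. On simulated data with 39091 probes, a change by 1 log2 unit was found again in 60.5% of 200 changed probes for hormone horns against control gilts, 58.0% for placebo horns against control gilts and 76.0% for horns of a gilt, and a change of 2 units for 89.0%, 89.0% and 96.0%. Of the unchanged probes 27, 16 and 39 were called. In the real comparison between horns 1 of 39094 probes passed, fewer than were changed in the simulation, so the shares found again there can be too high.

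The 4 genes and all lists were chosen with earlier results of these data known. Named besides them were fixed cell cycle regulators where measured, the gene of each list with the largest rise and fall among those that passed, and the 5 genes most like each of the 4, of which 1 is not reported here. Alternatives were quantile normalization, normexp on median signals (offset 50, since mean signals were not used here), the value table, filters on dim probes, other blocks, the second probe, and each gilt left out in turn.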

Additional observations from a re-analysis of the deposited data

Results flagged for a closer look

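CDK1 in the hormone horns was flagged because 1 array lay far from the other 5: the highest level, 2.17 in gilt 47, stood off by 0.788 of the group's range, above Dixon's critical value of 0.625 for 6 arrays. CCNB1 in the hormone horns was flagged for the same array, with 1.60 in gilt 47 and a gap of 0.691 of the range. The CDK1 difference between the horns of treated gilts was flagged because gilt 44, at 2.20, lay far from the other 4 gilts, with a gap of 0.763 of the range against a critical value of 0.710. In all, 24 groups of values were checked in this way, and chance flags about 1 in 20.

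BIRC5 was flagged because its horn difference was larger in treated than in control gilts, by 0.712 log2 units (exact permutation test over gilts, p = 0.00794). This p is the smallest that 126 splits allow. BIRC5 had been chosen on high hormone horns, which enter this difference, so the test is not independent support.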

How the results depend on the processing

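The differences of the 4 genes from control gilts kept their direction under all 21 or 22 alternatives, from 2.28 to 2.97 for CDK1, 1.03 to 1.48 for CCNB1, 1.04 to 1.39 for BIRC5 and -1.11 to -0.67 for CDC25C in hormone horns. Scan day as a term, and the fit without the hormone horn of gilt 36, were chosen after seeing the data. BIRC5 passed between horns under none of its alternatives (adjusted p from 0.0519 to 0.988). Leaving out a gilt gave -0.11 to 0.02 (0.0224 without gilt 28) for BIRC5 and -0.39 to 0.12 for CDC25C between control horns, and 0.41 to 0.92 for the CDC25C horn difference of treated minus control gilts.

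Of the other cell cycle genes, 10 passed in hormone horns against control gilts, but 16 with slide as a random block, 6 with both control horns averaged per gilt, and 5 to 12 with a gilt left out. In placebo horns 3 passed, but 5 with quantile normalization, 8 with no replicate block, 13 with slide as a random block, 0 with control horns averaged, 0 with the compared groups alone, and 0 to 7 with a gilt left out. Between the horns of treated gilts 0 passed, but 1 with the gilt as a fixed replicate block and 0 to 1 with a gilt left out. Of all probes 1 passed there, but 16 with the fixed block and 0 to 16 with a gilt left out. Counts over all probes moved too. In hormone horns 4553 of 39091 passed, but 8293 with slide as a random block and 2191 with control horns averaged. With a gilt left out it was 1454 to 5281. In placebo horns 1728 of 39092 passed, but 1839 with quantile normalization, 3569 with no replicate block and 5005 with slide as a random block. It was 93 with control horns averaged, 14 with the compared groups alone, and 0 to 3294 with a gilt left out. The cause was not tested for any of these changes. Of the 5 genes most like each, 3 to 5 were shared for CCNB1, 2 to 5 for BIRC5 and 3 to 5 for CDC25C with a gilt left out, and 2 for CDC25C with group means taken out.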
